A study of Mus musculus with 4 samples.

Results

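Foxp3, Ctla4, Il2ra, Icos, Tnfrsf4, Tnfrsf18, Ikzf2 and Cd28 are genes by which regulatory T cells are recognised or through which T cells receive costimulation. They were taken by symbol from the 32285 genes of the deposited gene list, and all 8 were found there. Their raw UMIs (unique molecular identifiers, 1 per captured RNA molecule) were read in every lymphocyte type of 4 single-cell libraries. The libraries held leukocytes sorted for CD45, a surface protein of all leukocytes, from left lungs grafted between B6 mice, donor and recipient being syngeneic. The RvD1 donor and RvD1 recipient libraries came from grafts in mice given resolvin D1, a lipid mediator of the resolution of inflammation, intravenously just before transplantation at 200 ng in 200 µL of 1% ethanol. The vehicle donor and vehicle recipient libraries came from mice given vehicle in its place. In all 4 groups storage of the graft took 60 min at 4 °C and a further 45 min at 28 °C, and leukocytes were collected 2 h after reperfusion. Donor leukocytes had come with the graft and recipient leukocytes had entered it. Each library pooled 2 lungs, so each group is 1 library, no spread between animals can be had, and no difference between groups was tested. The age and sex of the mice, and how donor and recipient cells were told apart, are not given in the sources used here.

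Regulatory T cells are CD4 T cells that restrain other lymphocytes, and the transcription factor Foxp3 is required for their identity. Ikzf2 encodes Helios, a zinc finger factor of many regulatory T cells, and Il2ra encodes the alpha chain (CD25) of the receptor for interleukin 2, on which they depend. A T cell that meets antigen needs a second signal: Cd28 takes it from Cd80 and Cd86 on other leukocytes, Ctla4 binds the same ligands more tightly and is inhibitory, and Icos is a related receptor with its own ligand. Tnfrsf4 (OX40) and Tnfrsf18 (GITR) belong to the tumour necrosis factor receptor family, and both are known on regulatory T cells and on activated T cells. In transplantation, regulatory T cells are studied chiefly for graft tolerance.

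After filtering, 5024, 5527, 7345 and 5829 cells were used from the RvD1 donor, vehicle donor, RvD1 recipient and vehicle recipient libraries, with median depths of 5386 to 7905 UMIs per cell. Of these, 9198 cells of the 4 libraries were lymphocytes of the types described. The counting software was Cell Ranger 7.0.1 for the RvD1 pair of libraries but 6.1.1 for the vehicle pair, and the part of treatment and that of version cannot be told apart. Between 4 and 15 barcodes were shared by any pair of libraries, at most 0.270% of the smaller one. UMIs of the neutrophil genes S100a8 and S100a9 were found in about 23% to 49% of the cells of every lymphocyte type, and the part of free RNA in low counts was not tested. Among 9691 neutrophils, which should lack the genes, the share of cells with a UMI was at most 0.212% for Foxp3 and Il2ra, 1.05% for Ctla4 and 1.71% for Tnfrsf18 in any library. It was at most 0.636% for the other 4 genes.

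Lymphocyte types were clusters named "-like" or by leading genes from markers that did not include the 8 genes, and the 8 genes did not enter the clustering. The clustering settings and the rule for the Treg-like name were nevertheless chosen after the detection of these genes in the clusters had been seen, so that high levels in Treg-like cells are not independent of how that class was set. The Treg-like class held 37, 33, 75 and 22 cells of the RvD1 donor, vehicle donor, RvD1 recipient and vehicle recipient libraries. Lrrc32, which anchors latent TGF-beta on regulatory T cells, was found in 37.1% of Treg-like, 4.12% of memory CD4 and 0.22% of naive CD4 T cells, and Cd40lg, a gene of conventional CD4 T cells, in 8.38%, 41.2% and 9.93%. Lrrc32 was a marker used to name the class, so its share there is not independent of the name. The clusters that make up the Treg-like class differed in Lrrc32, as given below. Levels are given as CPM, the gene's UMIs per 1000000 UMIs of that type in that library. Intervals are 95%, exact, and cover counting error only. Levels were not compared between genes.

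The 8 genes lie in 5 places of the genome (GRCm38). Cd28 (chr1:60716800-60773359), Ctla4 (chr1:60887000-60915832) and Icos (chr1:60977927-61000320) follow each other on the plus strand of chromosome 1, with 113.6 kb and 62.09 kb between neighbours. Ikzf2 lies apart from them on the minus strand (chr1:69531214-69687245). Tnfrsf4 (chr4:156013843-156016612) and Tnfrsf18 (chr4:156026164-156028895) are 9.551 kb apart on the plus strand of chromosome 4. Il2ra is at chr2:11642807-11693193 and Foxp3 at chrX:7573644-7595245, both on the plus strand. The introns of Tnfrsf4 and Tnfrsf18 together span 1405 and 1208 bases, the shortest of the 8, and those of Ikzf2 span 144419 bases, the longest.

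The 250 bases upstream of the annotated start are shown for Tnfrsf4 and Tnfrsf18, the neighbours whose levels moved together below, and for Foxp3 and Ctla4, which mark the cells. They were taken from RefSeq (GRCm38.p6), where 5 of the 8 genes had an entry, and all run 5′ to 3′ on the plus strand. These RefSeq starts differ from the gene spans above, which are those of GENCODE M21. The windows of Ctla4 and Foxp3 lie inside those spans, and that of Tnfrsf18 lies partly inside. Capitals mark matches to the 5 motifs searched.
Tnfrsf4, chr4:156013445-156013694: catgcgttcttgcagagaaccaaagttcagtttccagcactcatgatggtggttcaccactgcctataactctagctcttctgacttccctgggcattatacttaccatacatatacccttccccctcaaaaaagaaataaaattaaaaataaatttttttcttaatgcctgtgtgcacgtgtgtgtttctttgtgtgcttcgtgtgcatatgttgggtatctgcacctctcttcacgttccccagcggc
Tnfrsf18, chr4:156026072-156026321: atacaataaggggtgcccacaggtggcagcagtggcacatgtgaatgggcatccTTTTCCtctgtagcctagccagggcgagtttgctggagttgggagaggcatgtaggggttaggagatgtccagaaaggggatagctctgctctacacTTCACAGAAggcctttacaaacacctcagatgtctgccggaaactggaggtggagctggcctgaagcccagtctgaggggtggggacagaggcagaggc
Ctla4, chr1:60908775-60909024: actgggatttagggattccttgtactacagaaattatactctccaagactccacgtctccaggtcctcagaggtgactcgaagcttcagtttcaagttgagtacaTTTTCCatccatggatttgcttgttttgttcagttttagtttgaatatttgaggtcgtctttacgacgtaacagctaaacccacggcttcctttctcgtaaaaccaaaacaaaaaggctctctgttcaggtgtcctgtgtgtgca
Foxp3, second annotated start, chrX:7580233-7580482: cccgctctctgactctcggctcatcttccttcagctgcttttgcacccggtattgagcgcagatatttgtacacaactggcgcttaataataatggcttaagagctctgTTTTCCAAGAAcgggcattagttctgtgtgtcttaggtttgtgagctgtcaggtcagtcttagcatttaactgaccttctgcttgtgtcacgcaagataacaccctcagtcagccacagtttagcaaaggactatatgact
The Tnfrsf18 window held an NFAT core, TTTTCC, from base -196 and a STAT core, TTCACAGAA, from base -99, counted back from the start. The Ctla4 window held 1 NFAT core from base -145. Foxp3 had 2 windows: that of its first annotated start (chrX:7579426-7579675, not shown) held a TATA box from base -32 and no other motif. In the window shown, that of the second start, an NFAT core from base -141 and a STAT core, TTCCAAGAA, from base -139 overlapped. The Tnfrsf4 window and the Il2ra window held none of the motifs. NFAT (GGAAAA), STAT (TTCNNNGAA), AP-1 (TGANTCA) and forkhead (GTAAACA) cores were searched on both strands and the TATA box (TATAAA) on the given strand. Among 32851 windows of the same length, 20.4% held the NFAT core, 7.02% the STAT core, 6.75% the AP-1 core, 3.17% the forkhead core and 7.59% the TATA box. A match describes letters and is no evidence that a factor was bound.

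Of 510 Foxp3 UMIs over all cells used, 360 UMIs, or 70.6%, came from 107 of the 167 Treg-like cells. By library, Treg-like cells held 76.4%, 46%, 77.9% and 72.1% of the Foxp3 UMIs in the RvD1 donor, vehicle donor, RvD1 recipient and vehicle recipient libraries. In the vehicle donor library another 45% came from 12 cells that were neither neutrophils nor lymphocytes of the types described. In Treg-like cells it stood at 290 CPM (235 to 355) in the RvD1 donor library, 172 CPM (126 to 229) in the vehicle donor library, 324 CPM (278 to 375) in the RvD1 recipient library and 219 CPM (159 to 294) in the vehicle recipient library. The RvD1 level was the higher of the pair in both origins, and a Foxp3 UMI was found in 62.2%, 30.3%, 77.3% and 72.7% of the cells in the same order. In every library this level was above that of each other lymphocyte type with at least 20 cells, with intervals that did not overlap. Memory CD4 T cells came next in the RvD1 recipient library at 33.2 CPM, from 23 UMIs in 4 cells, and had 1 or 2 UMIs in each other library. Naive CD4 T cells stood between 0.816 and 5.24 CPM, and naive CD8 T cells held 11 UMIs in 4 cells of the RvD1 recipient library and none elsewhere. Every other lymphocyte type held 0 or 1 UMI of Foxp3 per library. Outside them, a cluster of proliferating cells held 20, 30, 0 and 6 Foxp3 UMIs in the 4 libraries. CD4 T cells with Foxp3 had a median of 3, 3, 2 and 2 Foxp3 UMIs, and 20 of 26, 11 of 12, 47 of 67 and 11 of 19 of them had more than 1.

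Treg-like cells were 4.68% of T cells in the RvD1 donor library (37 of 790, 3.32% to 6.40%) and 3.54% in the vehicle donor library (33 of 933, 2.45% to 4.93%). They were 4.06% in the RvD1 recipient library (75 of 1847, 3.21% to 5.06%) and 2.81% in the vehicle recipient library (22 of 783, 1.77% to 4.22%). The intervals overlapped within each origin. The share depends on the clustering: with called doublets kept it was 0.631%, 0.528%, 2.85% and 1.63% in the same order. Counted by Foxp3 alone, 13.5% of CD4 T cells had a UMI in the RvD1 donor library (26 of 193, 8.99% to 19.1%) and 4.43% in the vehicle donor library (12 of 271, 2.31% to 7.61%). The same share was 6.82% in the RvD1 recipient library (67 of 982, 5.33% to 8.58%) and 5.26% in the vehicle recipient library (19 of 361, 3.20% to 8.10%). The donor intervals did not overlap and the recipient intervals did. Naive CD4 T cells were 75 of the 193 RvD1 donor and 162 of the 271 vehicle donor cells, and their part in the difference was not tested. Left out of these shares were 7 RvD1 donor and 12 vehicle donor cells with Foxp3 that were neither neutrophils nor lymphocytes of the types described. Over all cells used, 35 of 5024 RvD1 donor and 29 of 5527 vehicle donor cells had a Foxp3 UMI.

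Treg-like cells of donor and recipient origin came largely from different clusters. One cluster of 88 cells, led by Klrg1, Tnfrsf9, Il2ra and Il1rl1, gave 83.8% and 84.8% of the Treg-like cells of the RvD1 and vehicle donor libraries, and 28.0% and 36.4% of those of the RvD1 and vehicle recipient libraries. The other, of 79 cells, was led by Lrrc32, Gpr83 and Foxp3 and held the rest. Lrrc32 was found in 20.5% of the first and 55.7% of the second, Gpr83 in 0% and 35.4% and Izumo1r in 26.1% and 54.4%. Tnfrsf9 ran the other way, at 72.7% and 38.0%. Under the first naming rule tried, the first cluster was named memory CD4 T cells. Foxp3 was found in 55.7% of the first and 73.4% of the second. Icos was found in 95.5% and 60.8%, Cd28 in 76.1% and 40.5% and Il2ra in 59.1% and 36.7%. Ikzf2 was found in 64.8% and 81.0%, while Ctla4, Tnfrsf4 and Tnfrsf18 differed less between the clusters. Ccr7, a homing receptor of naive and central memory cells, was found in 22.7% and 83.5%, and Klrg1, an inhibitory receptor of effector cells, in 23.9% and 0%. These values describe the clusters, which genes other than the 8 could help to form.

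Ikzf2, the Helios gene, was also high in Treg-like cells but not confined to them. Its level there was 1316 CPM in the RvD1 donor library, 374 CPM in the vehicle donor library, 1222 CPM in the RvD1 recipient library and 1057 CPM in the vehicle recipient library. The vehicle donor library stood apart from the other 3. Naive CD8 T cells had 86.5, 256, 147 and 139 CPM in the same order, whereas naive CD4 T cells had 4.64 to 6.98 CPM. Gamma-delta T cells (237, 170 and 172 CPM in the 3 libraries with at least 20 of them) and memory CD8 T cells (182, 101, 92.9 and 199 CPM) were near the naive CD8 T cells. B cells held none in 3 libraries and 2.69 CPM in the vehicle recipient library. Some 54 cells of the RvD1 recipient library, T cells outside the named types, had 574 CPM, and the unnamed lymphocytes of the donor libraries 657 CPM with RvD1 and 802 CPM with vehicle.

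Ctla4, the inhibitory receptor, stood at 976, 852, 1198 and 793 CPM in Treg-like cells of the RvD1 donor, vehicle donor, RvD1 recipient and vehicle recipient libraries. A UMI of it was found in 94.6%, 78.8%, 98.7% and 95.5% of these cells. Memory CD4 T cells followed with 390, 260, 386 and 335 CPM and no overlap of intervals with Treg-like cells. Naive CD4 T cells had 47.0 to 77.8 CPM and naive CD8 T cells 36.3 to 75.9 CPM. NK cells had 2.74 to 16.1 CPM and B cells 7.69 to 39.4 CPM, in 12.1%, 6%, 13% and 4.22% of B cells. The share in B cells was above the neutrophil background in each library.

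Cd28, the main costimulatory receptor, was not led by Treg-like cells. Memory CD4 T cells had 413, 350, 312 and 382 CPM in the RvD1 donor, vehicle donor, RvD1 recipient and vehicle recipient libraries, and Treg-like cells 297, 250, 151 and 155 CPM. Zbtb16 T cells, a cluster named for the factor of innate-like T cells, had 354 and 361 CPM in the RvD1 and vehicle donor libraries. Memory CD8 T cells had 262, 182, 199 and 430 CPM, the last from 25 cells. Naive CD4 T cells had 88.3 to 129 CPM, ILC2-like cells 7.88 and 20.9 CPM in the RvD1 and vehicle donor libraries, and B cells 1.73 to 12.3 CPM.

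Icos was highest outside the CD4 T cells in both donor libraries. Il23r T cells, a cluster of almost only donor cells named for the interleukin 23 receptor gene among its leading genes, had 2113 CPM in the RvD1 donor library and 1813 CPM in the vehicle donor library. Gamma-delta T cells had 1034, 807 and 673 CPM in the RvD1 donor, vehicle donor and RvD1 recipient libraries. In the last of these they led with an interval that overlapped that of memory CD4 T cells, and in the vehicle recipient library memory CD4 T cells led among types with at least 20 cells. Treg-like cells had 840, 1244, 473 and 553 CPM over the 4 libraries, and both donor libraries were above both recipient libraries. Memory CD4 T cells were nearly level at 556, 599, 610 and 571 CPM. ILC2-like cells had 504 and 587 CPM in the RvD1 and vehicle donor libraries. NK cells had 34.6 to 77.5 CPM, and B cells 0 to 1.34 CPM, at or near the neutrophil background.

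Il2ra was led by group 2 innate lymphoid cells (ILC2), not by Treg-like cells, in both donor libraries. In ILC2-like cells it stood at 1551 CPM in the RvD1 donor library and 1518 CPM in the vehicle donor library, with a UMI in 91.5% and 97.2% of cells. These cells were nearly absent among recipient leukocytes, with 0 in the RvD1 and 1 in the vehicle library. Il23r T cells had 386 and 392 CPM in the RvD1 and vehicle donor libraries. Gamma-delta T cells had 328, 346 and 150 CPM in the RvD1 donor, vehicle donor and RvD1 recipient libraries, the last from 46 cells and also below the donor levels. In the vehicle donor and RvD1 recipient libraries they stood above Treg-like cells, with overlapping intervals. Treg-like cells had 346, 291, 125 and 125 CPM over the 4 libraries, higher in both donor than in both recipient libraries. Il2ra was found in 70.3%, 54.5%, 38.7% and 36.4% of Treg-like cells. Memory CD4 T cells had 43.0, 18.7, 7.22 and 13.7 CPM, and naive T, NK, memory CD8 and B cells at most 10 CPM.

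Tnfrsf4 was high in Treg-like and memory CD4 T cells and low in the other lymphocyte types. Treg-like cells had 1205 CPM in the RvD1 donor library, 321 CPM in the vehicle donor library, 534 CPM in the RvD1 recipient library and 209 CPM in the vehicle recipient library. Memory CD4 T cells had 311, 179, 208 and 192 CPM, naive CD4 T cells 15.7 to 21.5 CPM, and the other named lymphocyte types at most 12.5 CPM. In both types and both origins the RvD1 library was the higher, with overlapping intervals in recipient memory CD4 T cells.

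Its neighbour Tnfrsf18 was spread more widely. ILC2-like cells led with 793 and 526 CPM in the RvD1 and vehicle donor libraries. Treg-like cells had 677, 243, 438 and 249 CPM and memory CD4 T cells 381, 216, 308 and 234 CPM over the 4 libraries, again with the RvD1 library higher in each origin and overlapping intervals in recipient memory CD4 T cells. Zbtb16 T cells had 237 and 195 CPM in the RvD1 and vehicle donor libraries. Naive CD4 T cells had 101 to 145 CPM, naive CD8 T cells 103 to 139 CPM and NK cells 68.4 to 95.5 CPM. B cells had 7.34 to 10.2 CPM.

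Counting over lymphocyte types with at least 20 cells, Treg-like cells had the highest level of 4 of the 8 genes in the RvD1 donor library and 3 in the vehicle donor library. They had it for 5 in the RvD1 recipient library and 6 in the vehicle recipient library, where ILC2-like and Il23r T cells were too few to enter. The share of all genes that were highest in Treg-like cells was not computed, so these counts do not set the 8 genes apart from other genes. The class was also set after detection of these genes had been seen. The plot of levels by type and library shows each of these values.

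Within CD4 T cells of 1 library, treatment and software version are shared, so cells with and without a Foxp3 UMI were set side by side. Ikzf2 stood at 1660 CPM in cells with Foxp3 against 50.6 CPM in cells without it in the RvD1 donor library, and at 1035 against 31.4 CPM in the vehicle donor library. It stood at 1175 against 34.8 CPM in the RvD1 recipient library and at 1322 against 35.1 CPM in the vehicle recipient library. The log2 ratio was thus 5.04, 5.04, 5.08 and 5.24, the most even of the 7 genes over the libraries, with naive CD4 T cells counted in. Il2ra was higher in Foxp3-positive cells by 3.22 to 5.37, Ctla4 by 2.14 to 3.46 and Tnfrsf4 by 2.38 to 3.41 on the log2 scale. Tnfrsf18 was higher by 1.03 to 1.41 and Icos by 0.77 to 1.59. Cd28 was not set apart, with log2 ratios of -0.31, 0.52, 0.74 and -0.21 in the 4 libraries. At least 2-fold higher were 5 of the 7 genes in the RvD1 donor library and 6 in each of the others. The share of all genes past 2-fold between these cells was not computed, so these counts do not set the 7 genes apart from other genes. At least 4 of the 7 genes were found in 96.2%, 100%, 85.1% and 84.2% of Foxp3-positive cells, against 44.9%, 28.2%, 14.5% and 14.3% of Foxp3-negative cells.

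Cells with a Foxp3 UMI can differ in depth and in naive or memory state from those without. After each cell had been thinned to 1000 UMIs, Ikzf2 was found in 50% of cells with Foxp3 and 5.99% without in the RvD1 donor library, and in 41.7% and 2.71% in the vehicle donor library. The shares were 52.2% and 2.08% in the RvD1 recipient library and 63.2% and 2.63% in the vehicle recipient library. Thinned shares of Ctla4, Il2ra, Icos and Tnfrsf4 were also the higher in cells with Foxp3 in each library. Those of Tnfrsf18 were higher in 3 libraries, but in the vehicle donor library it was found in 8.33% of the 12 cells with Foxp3 and 11.2% of those without. For Cd28 the share was the higher in the RvD1 recipient library only. With naive CD4 T cells left out, a choice made after the data were seen, the log2 ratio was 2.22 to 4.41 for Ikzf2, 2.49 to 3.83 for Il2ra and 1.15 to 2.24 for Ctla4. It was 0.64 to 1.84 for Tnfrsf4, 0.28 to 0.86 for Tnfrsf18, -0.20 to 0.55 for Icos and -1.48 to -0.36 for Cd28. For Cd28 the interval lay below 0 in 3 libraries, while in the vehicle donor library the ratio of -0.36 (-0.99 to 0.22) rested on 27 UMIs in 11 cells with Foxp3 and did not stand apart from 0. Ikzf2, the most even gene over all CD4 T cells, had the widest range over the libraries here. The count at least 2-fold higher was then 3 in each recipient library, again without the share of all genes beside it.

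**Figure D1:**
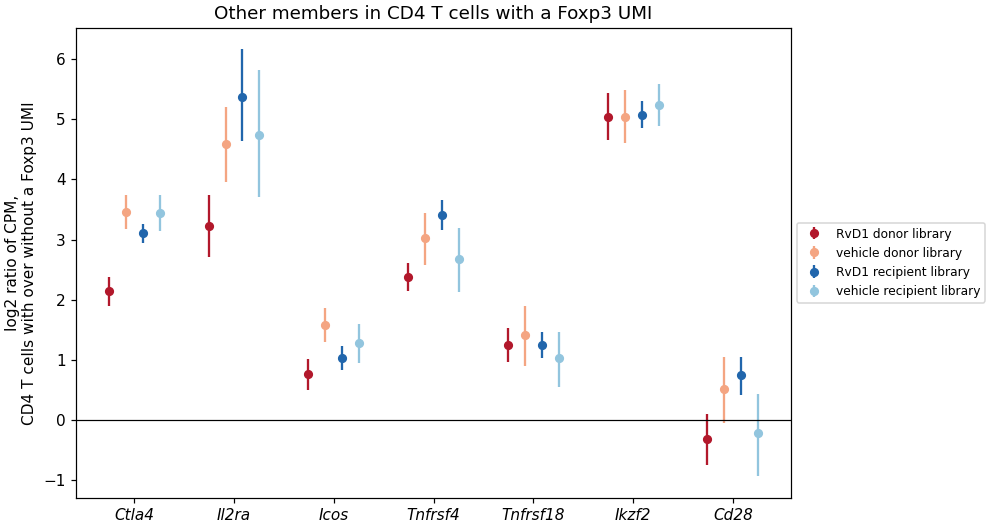
Log2 ratio of CPM, CD4 T cells with over those without a Foxp3 UMI, for the other 7 genes in each library; bars are 95% exact intervals for counting error. Ikzf2 lies between 5.04 and 5.24 in all 4 libraries and Cd28 lies on either side of 0.

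Tnfrsf4 and Tnfrsf18 were higher with RvD1 than with vehicle in memory and Treg-like CD4 T cells joined, in both origins. Treg-like cells reached the minimum of 50 cells in 1 library only, so memory and Treg-like CD4 T cells were joined into 1 type of 118, 109, 170 and 61 cells, a step added after the data were seen. Tnfrsf4 stood at 615 CPM in the RvD1 donor library against 221 CPM in the vehicle donor library, and at 351 CPM in the RvD1 recipient library against 198 CPM in the vehicle recipient library. The log2 ratio of RvD1 over vehicle was 1.48 (1.24 to 1.72) in donor cells and 0.82 (0.52 to 1.14) in recipient cells. Tnfrsf18 stood at 481 against 224 CPM in donor cells, a log2 ratio of 1.10 (0.86 to 1.35), and at 365 against 239 CPM in recipient cells, a log2 ratio of 0.61 (0.33 to 0.90). Foxp3 itself stood at 101 against 52.7 CPM in donor cells and 161 against 79.7 CPM in recipient cells, log2 ratios of 0.94 (0.42 to 1.47) and 1.01 (0.54 to 1.52). Ctla4 was higher with RvD1 by 0.44 (0.25 to 0.63) and 0.58 (0.38 to 0.78). Among all genes of this joined type, 3.41% passed 2-fold upward and 4.39% downward with RvD1 in donor cells, and 4.29% upward and 3.88% downward in recipient cells.

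Among the other 4 genes, Ikzf2 was above 0 beyond counting error in both origins and the rest were not. Ikzf2 was higher with RvD1 by 1.33 (1.08 to 1.59) in donor cells, at 484 against 192 CPM, and by 0.26 (0.07 to 0.46) in recipient cells, at 652 against 544 CPM. Il2ra was higher by 0.56 (0.17 to 0.96) in donor cells, and in recipient cells its log2 ratio was 0.15 (-0.48 to 0.82). Icos had log2 ratios of -0.27 (-0.43 to -0.12) and -0.04, and Cd28 of 0.22 (-0.01 to 0.45) and -0.32 (-0.60 to -0.04). Over 4 other cell assignments and 3 other scalings the Tnfrsf4 ratio ranged from 1.20 to 1.61 (donor) and from 0.64 to 0.88 (recipient). The Tnfrsf18 ratio was 0.82 to 1.21 and 0.42 to 0.67, and the Foxp3 ratio 0.79 to 1.05 and 0.82 to 1.07.

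Foxp3 was found in 20.3% of the joined cells with RvD1 (24 of 118, 13.5% to 28.7%) against 10.1% with vehicle (11 of 109, 5.15% to 17.3%) in donor cells. The recipient share was 36.5% with RvD1 (62 of 170, 29.2% to 44.2%) against 27.9% with vehicle (17 of 61, 17.1% to 40.8%). The intervals overlapped in both origins. Since these shares can enter the ratios, the ratios were also taken within cells that had a Foxp3 UMI and within cells that had none. The split is not a full one: a Foxp3 UMI was found in 62.2% of RvD1 donor and 30.3% of vehicle donor Treg-like cells. With Foxp3 the vehicle sets held 11 donor and 17 recipient cells. The part of cell composition in the ratios was not tested. In donor cells with Foxp3, Tnfrsf4 stood at 1310 CPM with RvD1 against 609 CPM with vehicle, a log2 ratio of 1.11 (0.71 to 1.52). In donor cells without Foxp3 it stood at 401 against 170 CPM, a ratio of 1.24 (0.94 to 1.54). In recipient cells it stood at 501 against 268 CPM with Foxp3, a ratio of 0.90 (0.42 to 1.42), and at 252 against 172 CPM without, a ratio of 0.55 (0.14 to 0.96). Tnfrsf18 gave 0.91 (0.40 to 1.46) and 1.02 (0.74 to 1.30) in donor cells with and without Foxp3, and 0.58 (0.09 to 1.09) and 0.57 (0.22 to 0.93) in recipient cells. The share of cells with a UMI did not always follow. With RvD1 against vehicle, Tnfrsf4 was found in 83.3% against 90.9% of donor cells with Foxp3. Tnfrsf18 was found in 76.9% against 81.8% of recipient cells without Foxp3. In the remaining sets the share of either gene was the higher with RvD1. By CPM, Tnfrsf4 and Tnfrsf18 were higher with RvD1 in both origins, with and without a Foxp3 UMI, beyond counting error, which leaves out spread between cells. Ctla4 was not: with Foxp3 its ratios were -0.26 in donor and 0.13 in recipient cells, and without Foxp3 0.41 and 0.71. Ikzf2 differed between the sets in donor cells, with a ratio of 0.81 (0.50 to 1.13) with Foxp3 and -0.01 without.

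**Figure D2:**
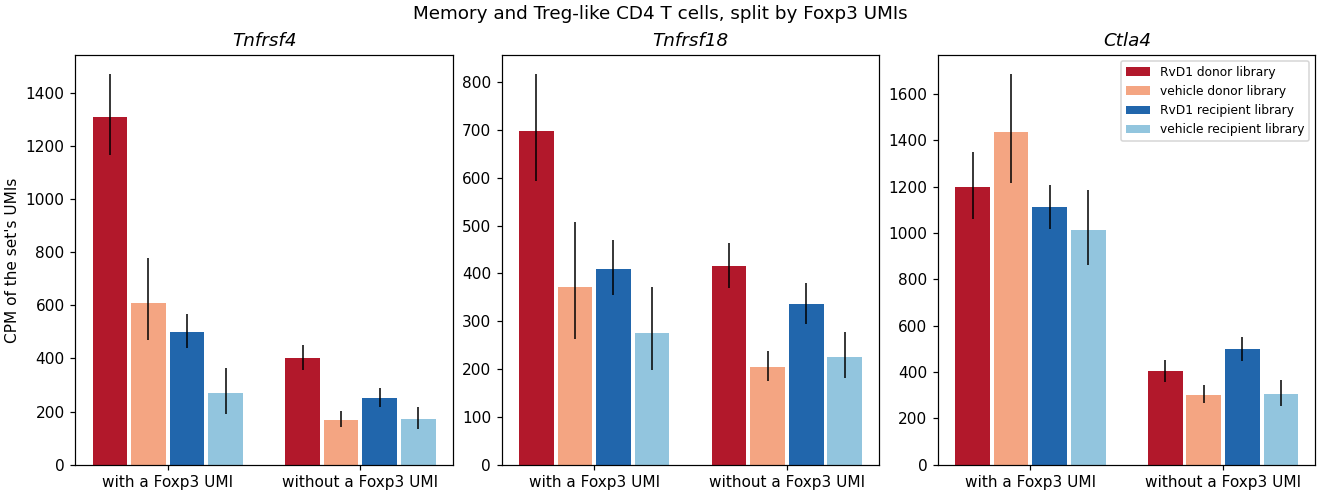
Level of Tnfrsf4, Tnfrsf18 and Ctla4 (CPM of the set's UMIs) in memory and Treg-like CD4 T cells with and without a Foxp3 UMI, by library; bars are single libraries and lines 95% exact Poisson intervals. For Tnfrsf4 and Tnfrsf18 the RvD1 bar is the taller of each donor and recipient pair in both sets.

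Some measures moved with these ratios. Over all genes of the joined type, the log2 ratio of RvD1 over vehicle had a Spearman correlation of -0.27 (donor) and -0.28 (recipient) with intron length, so that genes with short introns, as Tnfrsf4 and Tnfrsf18 have, tended to the RvD1 side. With this trend subtracted, the donor ratio was 1.20 for Tnfrsf4 and 0.82 for Tnfrsf18. Ribosomal protein and mitochondrial genes took 28.5% of UMIs against 22.9% in donor cells and 31.9% against 29.5% in recipient cells. Sdf4, which ends 232 bases before Tnfrsf4 on the same strand and was chosen after its values were seen, had a donor ratio of 0.57 (0.33 to 0.81) and a recipient ratio of 0.19 (-0.12 to 0.52). Whether the software version takes part in the ratios cannot be told apart from treatment in these libraries.

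In Treg-like cells alone, at the lower minimum of 20 cells, the ratio of RvD1 over vehicle was 1.91 (1.57 to 2.26) for Tnfrsf4 in donor cells and 1.35 (0.88 to 1.85) in recipient cells. It was 1.48 (1.07 to 1.90) and 0.81 (0.37 to 1.28) for Tnfrsf18, and 1.82 (1.5 to 2.15) and 0.21 for Ikzf2. Icos gave -0.57 and -0.23. These rest on 37 against 33 donor and 75 against 22 recipient cells, with 8.89% of all genes past 2-fold upward and 6.71% downward in donor cells, and 7.42% and 5.72% in recipient cells. The donor class fell to 5 to 7 cells under 4 of the other cell assignments.

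Over the lymphocyte types with at least 50 cells in both libraries, 56 pairs of gene and type could be compared in donor cells of 10 types, and 22 pairs in recipient cells of 4 types. In donor cells RvD1 went with a level at least 2-fold higher in 5 pairs and lower in 4, where 2.99% and 6.84% of all gene and type pairs were. In recipient cells 4 were higher and 0 lower, where 2.6% and 2.28% were. The median log2 ratio of the pairs was 0.00 in donor and 0.19 in recipient cells, against -0.14 and -0.07 for all genes.

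Ctla4 gave 4 of the 9 higher pairs. In donor memory CD8 T cells it had 127 UMIs with RvD1 and 83 with vehicle, 177 against 63.2 CPM, a log2 ratio of 1.48 (1.07 to 1.90). In NK cells the ratio was 2.10 (1.16 to 3.11) in donor cells, from 29 and 15 UMIs, and 1.85 (0.84 to 3.01) in recipient cells, from 43 and 10 UMIs. In recipient B cells it was 2.11 (1.60 to 2.65), from 153 and 40 UMIs. Ctla4 in neutrophils and monocytes moved the same way: the recipient ratio was 1.68 in neutrophils, from 33 and 13 UMIs, 2.33 in classical and 2.19 in nonclassical monocytes. The part of free RNA in the NK and B cell ratios was not tested. With called doublets kept, the ratio in donor NK cells was 0.76.

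In donor memory CD8 T cells, Tnfrsf18 was also higher, with 97 UMIs with RvD1 against 78 with vehicle and a log2 ratio of 1.19 (0.74 to 1.63). The recipient libraries held 51 and 25 such cells, too few in the vehicle library to compare. Cd28 was higher in B cells of both origins, by 1.24 (0.28 to 2.23) in donor cells from 24 and 17 UMIs and by 1.96 (0.85 to 3.22) in recipient cells from 31 and 9 UMIs. B cells, too, lay in different clusters: 1 cluster held 113 of 265 RvD1 against 41 of 450 vehicle donor B cells, and 453 of 944 against 256 of 876 in the recipient libraries. Il2ra was higher in donor memory CD4 T cells by 1.20 (0.17 to 2.32), from 27 and 12 UMIs. Tnfrsf4 was higher in recipient naive CD8 T cells by 2.07 (0.55 to 4.04), from 27 and 4 UMIs.

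Ikzf2 gave 3 of the 4 lower pairs, all in donor cells. Naive CD8 T cells had 140 UMIs with RvD1 against 655 with vehicle, a log2 ratio of -1.56 (-1.84 to -1.30). The largest cluster of naive CD8 T cells in the RvD1 library (74 of 148) had Ikzf2 among its leading genes, and that in the vehicle library was another (162 of 213). The cluster with Ikzf2 among its leading genes held 43 of the 213 vehicle cells, so its share was higher in the RvD1 library, where Ikzf2 was lower. The part of clusters in this ratio was not tested. Zbtb16 T cells, which were 1 cluster, had 57 against 255 UMIs, a ratio of -1.97 (-2.41 to -1.55), and Ikzf2 was found in 11.0% against 50.5% of them. In memory CD4 T cells the ratio was -1.11 (-1.74 to -0.50), but it was 0.90 to 1.36 under 5 other cell assignments. Il2ra was lower in naive CD8 T cells, at a ratio of -2.58 (-5.73 to -0.53), from 2 and 19 UMIs. Icos in NK cells was lower in both origins without reaching 2-fold, at ratios of -0.93 and -0.67. NK cells lay mostly in different clusters in the RvD1 donor library (258 of 406 in 1) and the vehicle donor library (312 and 319 of 766 in 2 others).

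**Figure D3:**
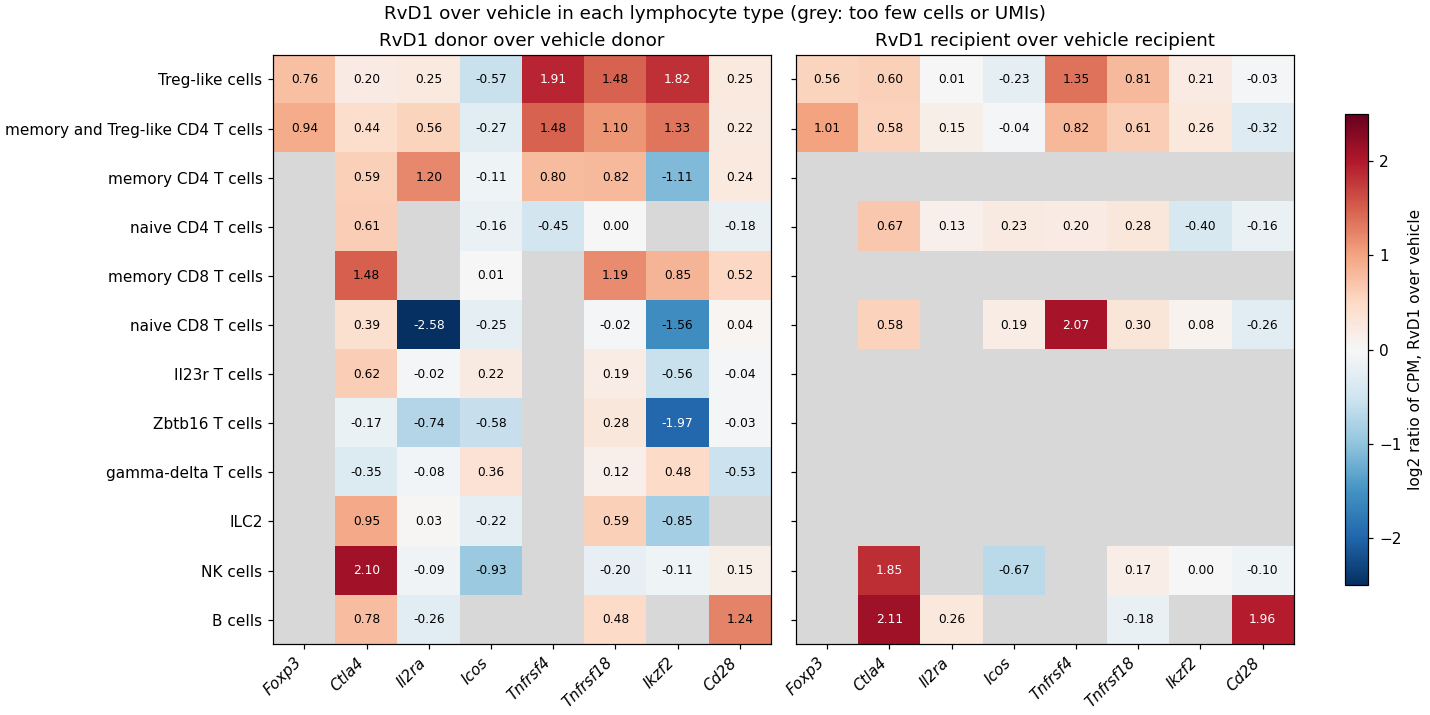
Log2 ratio of CPM, RvD1 over vehicle, for each gene and lymphocyte type in donor and recipient cells; grey fields had too few cells or UMIs. The Treg-like row (at least 20 cells) and the joined row were added after the data were seen, and in both rows Tnfrsf4, Tnfrsf18 and Foxp3 are above 0 in both origins.

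Recipient and donor leukocytes were compared next. In the joined CD4 type Il2ra was lower in recipient cells, at 59.1 against 146 CPM with RvD1 and 53.1 against 98.8 CPM with vehicle, log2 ratios of -1.31 (-1.74 to -0.89) and -0.90 (-1.54 to -0.29). Icos was lower, at ratios of -0.25 and -0.48. Ikzf2 was higher, by 0.43 with RvD1 and by 1.5 (1.23 to 1.78) with vehicle, and Foxp3 by 0.67 and 0.60. Past 2-fold, recipient over donor, were 2.89% of all genes upward and 4.92% downward with RvD1, and 3.61% and 7.66% with vehicle. Tnfrsf4 had ratios of -0.81 and -0.15 and Cd28 of -0.63 and -0.09. In Treg-like cells alone Il2ra gave -1.47 with RvD1 and -1.23 with vehicle, and Icos -0.83 and -1.17, between cells drawn largely from the different clusters described above.

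Over types with at least 50 cells, with RvD1, recipient cells passed 2-fold upward in 2 of 34 pairs and downward in 1, where 3.8% and 3.29% of all pairs were. With vehicle 0 of 22 were higher and 4 lower, where 1.4% and 2.77% were. The 3 pairs with RvD1 were all in memory CD4 T cells. Foxp3 was higher there by 3.38 (1.37 to 6.51) from 23 and 2 UMIs, Ikzf2 by 1.92 (1.37 to 2.51) from 142 and 34 UMIs, and Il2ra was lower, at a ratio of -2.57 (-4.31 to -1.18) from 5 and 27 UMIs. The Foxp3 and Ikzf2 ratios lay between -0.68 and 0.58 under 5 other cell assignments. With vehicle, the lower levels in B cells were at ratios of -1.58 (-2.17 to -1.01) for Ctla4, -1.59 (-2.94 to -0.34) for Cd28 and -1.13 (-2.16 to -0.13) for Il2ra. In naive CD8 T cells Il2ra was lower, at a ratio of -2.52 (-4.29 to -1.05), from 5 and 19 UMIs. The RvD1 and vehicle comparisons share libraries with those of treatment and are not independent of them.

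The wider pathway was read from a list of 36 other regulatory T cell and costimulation genes. With RvD1, 10 of 222 gene and type pairs (4.5%) passed 2-fold upward and 20 (9.01%) downward in donor cells, against 2.99% and 6.84% of pairs over all genes. In recipient cells 2 of 89 (2.25%) were higher and 1 (1.12%) lower, against 2.6% and 2.28%. Recipient cells had 8 of 137 pairs (5.84%) higher and 12 (8.76%) lower than donor cells with RvD1, against 3.8% and 3.29%. With vehicle 1 of 87 was higher and 1 lower (1.15% each), against 1.4% and 2.77%. No gene of the list was past 2-fold the same way with RvD1 in both origins. Irf4, a factor of activated lymphocytes, was higher in recipient than in donor naive CD4 T cells by 2.75 (0.23 to 8.08) with RvD1, from 66 and 1 UMIs, and by 1.28 with vehicle, from 56 and 14 UMIs. Tigit, an inhibitory receptor, was lower in recipient than in donor naive CD8 T cells, at ratios of -1.0 with RvD1 and -1.14 with vehicle.

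Of the list, Satb1, Bach2, Stat5b and Tnfrsf9 had the most UMIs in Treg-like cells. Satb1, a chromatin organiser of T cells, stood at 445, 811, 1492 and 1844 CPM there in the RvD1 donor, vehicle donor, RvD1 recipient and vehicle recipient libraries. Bach2, a repressor that restrains effector programmes, stood at 331, 508, 937 and 1191 CPM. Both were higher in both recipient libraries than in both donor libraries, and lower with RvD1 than with vehicle in each origin. Stat5b, which relays the interleukin 2 signal, stood at 433, 717, 732 and 623 CPM. Tnfrsf9 (4-1BB), a receptor of activated T cells, ran the other way, at 1227, 530, 213 and 184 CPM, with the RvD1 donor library highest. Tnfrsf9 was a marker used to name the class.

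In donor memory CD8 T cells, beside Ctla4 and Tnfrsf18, 6 of 25 listed genes passed 2-fold upward and 2 downward with RvD1, against 3.55% and 7.68% of all genes. The higher genes, named after their values were seen, were Pdcd1 at 1.49 (305 against 199 UMIs), Tigit at 1.73 (29 against 16), Havcr2 at 1.46 (18 against 12), Irf4 at 1.36 (14 against 10) and Slamf6 at 1.35 (60 against 43). Lag3 was at 4.68 (2.69 to 7.79), from 28 against 2 UMIs. The lower genes were Klrg1 at -1.20 (31 against 130 UMIs) and Runx1 at -1.06 (305 against 1160). Pdcd1, Tigit, Lag3, Havcr2 and Klrg1 all encode inhibitory receptors, so that these did not move one way. All cells of this type lay in 1 cluster, 103 of the RvD1 and 176 of the vehicle library.

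Genes of like pattern were sought over 33 sums of type and library with at least 50 cells, by Pearson correlation of log2(CPM + 10) among 10449 genes. The sums share libraries and depth, and only the RvD1 recipient library gave a Treg-like sum, on which the values for Foxp3 lean. Foxp3 was most like Lrrc32 (0.95), Gpr83 (0.84), Ankrd55 (0.79), Prg4 (0.75) and Tnfrsf4 (0.74), and the first pair were markers used to name the class. Tnfrsf4 was most like Gpm6b (0.84), Lrrc32 (0.82) and Prg4 (0.80), and Ctla4 most like Cd5 (0.84), Izumo1r (0.81) and Tnfrsf4 (0.80). Tnfrsf18 was most like Sdf4 (0.90), which lies beyond Tnfrsf4 on the same strand, then Tox and Itm2c (0.86 each). Il2ra was most like Gadd45b (0.94), Mpp7 (0.94) and Furin (0.93), and Icos most like Aebp2 (0.91), Hnrnpll (0.90) and Tbc1d9b (0.90). Ikzf2 was most like Il2rb (0.79), Atp2b4 and Cd226 (0.78 each). Cd28 was most like Cd6 (0.88), the T cell receptor gene Trac (0.88) and the T cell kinase gene Lck (0.87). Among the 8 genes the correlation was 0.80 for Ctla4 and Tnfrsf4, 0.76 for Icos and Tnfrsf18 and 0.09 for Il2ra and Foxp3.

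The ligands were found on other leukocytes. Their values are given whether or not they passed 2-fold, and without the share of all genes past 2-fold in the same types. Cd80, a ligand of Cd28 and Ctla4, stood highest in neutrophils, at 477, 564, 566 and 586 CPM in the RvD1 donor, vehicle donor, RvD1 recipient and vehicle recipient libraries, and at 333 and 420 CPM in migratory dendritic-like cells of the RvD1 and vehicle donor libraries. In nonclassical monocytes it stood at 160 against 252 CPM in donor and 138 against 279 CPM in recipient cells, RvD1 over vehicle ratios of -0.66 and -1.01. Cd86, the other shared ligand, was lower with RvD1 in classical monocytes, at 223 against 497 CPM in donor and 280 against 380 CPM in recipient cells, ratios of -1.16 and -0.44. In B cells Cd86 stood at 539 against 666 CPM in donor and 472 against 761 CPM in recipient cells, ratios of -0.30 and -0.69. Icosl, the ligand of Icos, stood at 67.3 and 59.1 CPM in dendritic-like cells of the RvD1 and vehicle donor libraries. In neutrophils it was higher with RvD1, at 40.9 against 28.8 CPM in donor and 31.6 against 22.9 CPM in recipient cells. Past 2-fold the same way in both origins was Cd80 in a cluster led by endothelial genes such as Cldn5, at 13 against 59.8 CPM in donor and 30.4 against 72.0 CPM in recipient cells, ratios of -2.20 and -1.24. These came from 10 against 29 UMIs in donor and 47 against 39 UMIs in recipient cells. The median depth of the cluster was 1541 against 4286.5 UMIs per cell in donor and 3967.5 against 5908.5 in recipient cells. The part of free RNA in these counts was not tested. Cd80 was also lower in recipient than in donor B cells, at ratios of -2.42 with RvD1 (18 against 41 UMIs) and -1.06 with vehicle (35 against 46 UMIs). Tnfsf4, Tnfsf18 and Il2 had 80, 30 and 80 UMIs in all cells of the RvD1 donor library and at most 127 in any other, too few to describe by type.

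**Figure D4:**
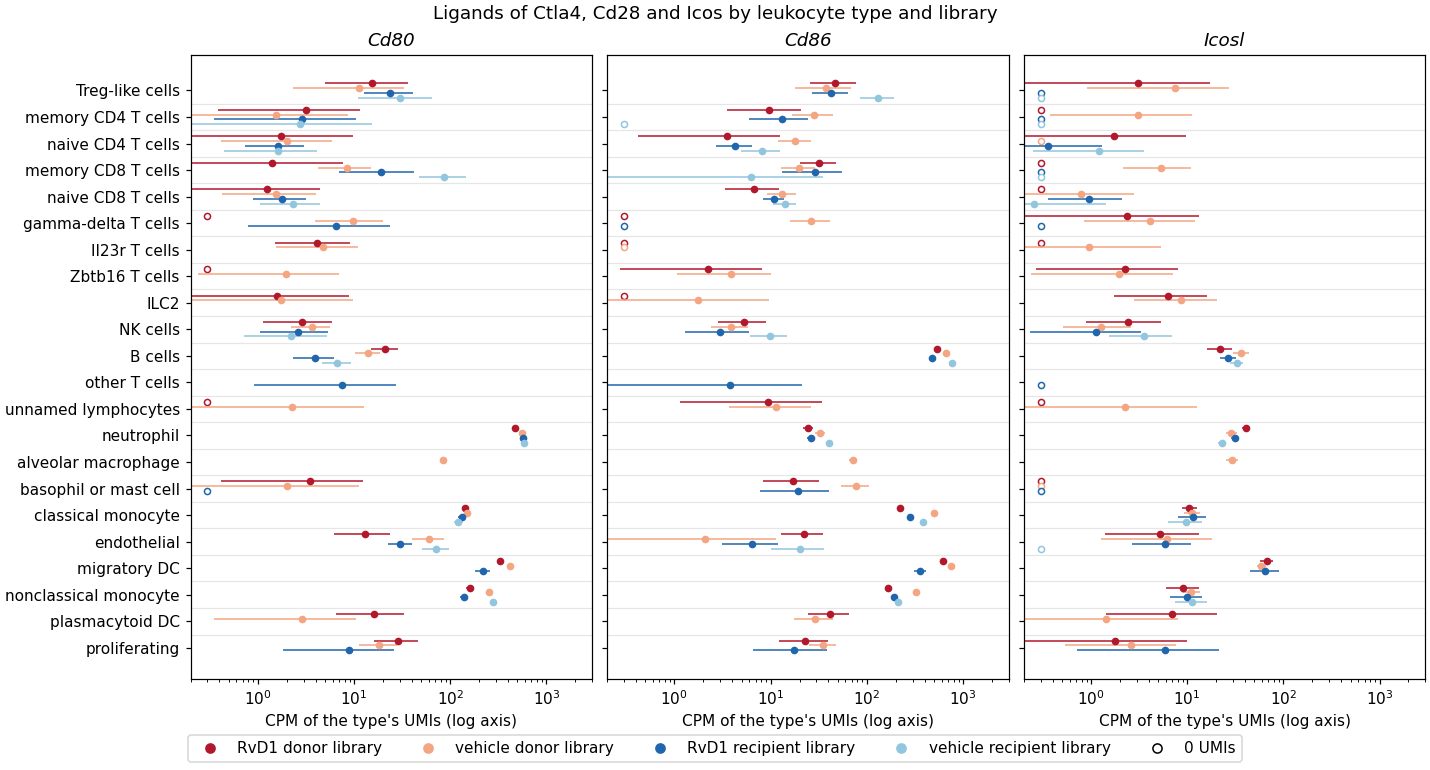
Level of Cd80, Cd86 and Icosl (CPM of the type's UMIs, log axis) by leukocyte type and library, for types with at least 20 cells; bars are 95% exact Poisson intervals and open circles mark 0 UMIs. Cd80 is highest in neutrophils, Cd86 in B cells and migratory dendritic cells, and Icosl in migratory dendritic cells.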

How the data were processed

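Single-cell libraries were made with 10x 3' v3 chemistry, per the labels' protocols. The authors deposited 4 matrices of raw UMI counts, genes by barcodes, made with Cell Ranger 7.0.1 (both RvD1 libraries) or 6.1.1 (both vehicle libraries), per the file headers, on mm10, per the submitters' processing notes, which also name Seurat 4.0.0. The treatment of intronic reads is not stated there. The libraries held 5195, 5743, 7836 and 5987 barcodes and 44338340, 61294707, 49967935 and 42199775 UMIs (RvD1 donor, vehicle donor, RvD1 recipient and vehicle recipient).

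Cells with under 200 genes or over 10% mitochondrial UMIs were left out, and 68, 131, 278 and 89 cells called as doublets by Scrublet in scanpy were removed. Cells were clustered (scanpy 1.11.5, leidenalg 0.10.2, Python 3.11.15) on 2000 variable genes per library and 30 principal components with 15 neighbours, at Leiden resolution 1.0 for all cells, 1.5 for lymphocytes and 1.0 for CD4 T cells. The 8 genes were kept out of the variable genes and of the markers that named clusters. The members and lists were chosen with earlier results of these data known. The lymphocyte resolution (5 looked at), the CD4 clustering (4 settings) and the naming rule (2 versions) were chosen after the clusters had been seen together with detection of the members.

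UMIs were summed per type and library and given as CPM of that sum. A type was compared with at least 50 cells in both libraries, and a gene with at least 20 UMIs over both; a ratio of 2-fold or more was counted. Intervals are exact (Poisson, Clopper-Pearson or binomial for a ratio; scipy 1.17.1), at 95%. With 1 library per group no test was possible. Of the gene identifiers, 99.61% were found in GENCODE M21. The text names all 8 genes. Of the wider list and the ligands it names those past 2-fold the same way in both origins, and the 4 of the list with most UMIs in Treg-like cells. Irf4, Tigit and Cd80 in B cells were past 2-fold in recipient over donor cells under both treatments. The genes listed for donor memory CD8 T cells and the other ligand values were not picked by these rules. Named too are the genes with the highest correlation with each member, 5 for Foxp3 and 3 for each other. On simulated counts, drawn for 1 type in each of the 4 comparisons, 97% to 100% of genes raised 4-fold were recovered at 2-fold. The simulated counts held counting error only, without spread between cells. Neither the joined nor the Treg-like type was simulated, so these rates do not carry over to them. Of unchanged genes 1.57% passed for RvD1 donor over vehicle donor (NK cells), 1.18% for RvD1 recipient over vehicle recipient (B cells), 7.91% for RvD1 recipient over donor (naive CD4 T cells) and 1.39% for vehicle recipient over donor (naive CD8 T cells). Alternatives tried were the members allowed in clustering, UMI gates in place of clusters, a doubled resolution, doublets kept, a mitochondrial limit of 5%, other minima and folds, other scalings and an intron length correction.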

Additional observations from a re-analysis of the deposited data

Results flagged for a closer look

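The difference between origins ran opposite ways under the 2 treatments for Ikzf2 in naive CD8 T cells. The log2 ratio of recipient over donor was 0.76 with RvD1 (147 against 86.5 CPM) and -0.88 with vehicle (139 against 256 CPM). This difference was not tested, since each group is 1 library. The cluster with Ikzf2 among its leading genes held 74 of 148 such cells in the RvD1 donor and 142 of 697 in the RvD1 recipient library. It held 43 of 213 in the vehicle donor and 87 of 377 in the vehicle recipient library. In both treatments its share thus ran opposite to the level of Ikzf2, and the part of clusters was not tested.

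Members were also found in cells outside the lymphocyte types, above their level in neutrophils. In the cluster of proliferating cells (50, 63 and 20 cells of the RvD1 donor, vehicle donor and RvD1 recipient libraries), Ctla4 was found in 32%, 36.5% and 55% of cells. Icos was found there in 30%, 41.3% and 55%, Tnfrsf18 in 28%, 36.5% and 50%, and Cd28 in 28%, 44.4% and 50%. The median depth of this cluster was 3841.5, 19650 and 14306.5 UMIs per cell in the RvD1 donor, vehicle donor and RvD1 recipient libraries. In the RvD1 donor library this was below the median of all its cells, 6463.5. The shares are therefore compared neither between these libraries nor with those of the lymphocyte types. Ikzf2 was found in 50%, 56.5% and 52.2% of basophil-like or mast-like cells of the same 3 libraries.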

How the results depend on the processing

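No paired analysis was possible because each group holds 1 library and the labels give no replicate numbers to pair. A count was taken as kept within 1.5 times the value reported, and a share or ratio within its 95% counting interval. Of the counts and shares recomputed, 119 were kept and 56 moved. Of the ratios, 448 were kept, 17 moved and 9 changed sign. The pairs compared and the share of all gene and type pairs past the limit can also change with the setting and are not given here. The counts that follow therefore do not tell a change in the 8 genes from a change in all genes. Pairs higher with RvD1 in donor cells (5) were 8 with doublets kept, with the first naming rule or with a minimum of 20 cells, 9 at a mitochondrial limit of 5%, 2 at a minimum of 50 UMIs and 14 at 1.5-fold; those lower (4) were 1 under UMI gates and 7 at 1.5-fold. In recipient cells those higher (4) were 2 at 50 UMIs, and those lower (0) were 2 at 10 UMIs or 20 cells and 1 at 1.5-fold. With RvD1, pairs higher in recipient than donor cells (2) were 0 with the members in the clustering, UMI gates, doublets kept, the 5% limit, the first rule or the joined type, 1 at doubled resolution or 50 UMIs and 6 at 1.5-fold. Those lower (1) were 2 with the members in the clustering, doublets kept, 10 UMIs or the intron trend subtracted, 3 at doubled resolution or the 5% limit, 4 at 20 cells, 6 at 1.5-fold, 10 under UMI gates and 0 at 50 UMIs. With vehicle, those higher (0) were 1 at the 5% limit, 10 UMIs or with the joined type, 2 at 1.5-fold and 5 at 20 cells, and those lower (4) were 10 under UMI gates, 2 at the 5% limit and 1 at 50 UMIs.

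The Treg-like share of T cells was 0.874%, 0.536%, 3.09% and 1.68% at doubled resolution in the RvD1 donor, vehicle donor, RvD1 recipient and vehicle recipient libraries, 0.631%, 0.528%, 2.85% and 1.63% with doublets kept, and 0.978%, 0.683%, 3.20% and 1.71% at the 5% limit. Under the first naming rule the RvD1 donor, vehicle donor and RvD1 recipient values were 0.759%, 0.536% and 2.92%. Among memory and Treg-like cells alone, genes at least 2-fold higher with Foxp3 were 3 in each recipient library, and the share of all genes was not computed. Ikzf2 in donor memory CD4 T cells, lower with RvD1 in the report, had ratios of 0.90 with the members in the clustering, 1.21 at doubled resolution, 1.19 with doublets kept, 1.36 at the 5% limit and 1.10 under the first rule. With RvD1, recipient over donor, Foxp3 in memory CD4 T cells had ratios of -0.0033 at doubled resolution and -0.00036 with doublets kept. Ikzf2, with the members in the clustering, had -0.68 in memory CD4 T cells and -0.0054 in the joined type. The cause of these shifts was not tested. Clustering each library alone gave no Treg-like cluster in 3 libraries, so no value could be given. Depth limits Foxp3, with at most 12 UMIs in any CD4 T cell.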
